A study of Mus musculus with 4 samples.

Results

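Expression of 9 endosome and lysosome genes was followed in sorted cells of the embryonic kidney-ureter junction: Unc93b1, Lamp1, Lamp3, Mcoln1, Litaf, Tcirg1, Atp6v1a, Ctsf and Ctsw. They were taken by gene symbol from a table of 36186 genes, and all 9 were found in it. The tissue was microdissected at E13.5 from SV/129 embryos of the genotype PTC-/-MM, in which hedgehog signalling is constitutively active in the metanephric mesenchyme, the tissue into which the ureter grows. An antibody against PTC2 served to sort the cells by FACS, which gave 2 PTC2+ and 2 PTC2- libraries, so both populations carry the mutant genotype. The labels name neither the driver of the deletion nor the embryos behind each library, so the spread on which the p-values rest is that of 2 libraries a population and may be technical. No normal embryo was analysed here.

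In the deposited table levels are given as normalized RPKM (NRPKM). RPKM is reads per length of gene and per size of library, and the authors scaled it further. Levels of different genes can be compared only roughly, since the gene models and the scaling are not given and RNA was amplified. Pairs of values are given in the order replicate 1, replicate 2. The names in the table fit the values only in parts of it. Rps6 and Rpl13a, which encode ribosomal proteins, were listed at 0 in all 4 libraries. The 9 genes lie in 3 chromosome stretches where names and values fit: chromosome 16 from Naa60 to Mrps6, chromosome 19 from Ighmbp2 to Pygm and chromosome 8 from Insr to Agpat5, with 1303 rows in all. Of 67 rows there named for receptors of smell, taste or pheromones, keratin-associated proteins or defensins, 0 averaged 1 NRPKM or more. The stretches were chosen earlier from the mean over all 4 libraries, and the 9 genes were proposed with their values in the PTC2+ and PTC2- libraries known. The differences between populations are therefore given as a description, and nothing is read from how many of the 9 differ. The gene whose protein was used for the sort lies outside the stretches and was not checked here.

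Endosomes and lysosomes are acidic compartments that receive material taken up by the cell and digest it. A proton pump in their membrane acidifies the lumen, cathepsins and other hydrolases digest the content, and membrane proteins line the compartment, sort cargo and release ions. Every cell has lysosomes, whereas phagocytes such as macrophages are rich in them and also use endosomes to sense foreign nucleic acid. The transcription factors TFEB and TFE3 bind a palindromic DNA element, called CLEAR, near the starts of many lysosome genes.

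Promoters were looked up to see whether the genes share such letters. RefSeq promoters (GRCm38.p6, 250 bases before to 50 after a start) were listed for 7 of the 9 genes, with 9 starts. The letters CACGTG, which are their own reverse complement, were found before a start of Lamp1, Mcoln1, Atp6v1a and Ctsf, 4 of these 7 genes. The longer TCACGTGA, which contains CACGTG, was found in 2 of them, Mcoln1 and Atp6v1a. Of 32851 listed promoters of the same length, 7.15% hold CACGTG and 0.974% hold TCACGTGA on either strand. The letters GAGGAA, a core of purine-rich elements bound by the blood-cell factor PU.1, were found in 1 of the 7 genes, Tcirg1, against 28.3% of all promoters. The 140 bases just before the start of the 4 genes with CACGTG are given with CACGTG in capitals, since these letters are what the genes share. Lamp1 holds it 4 times, Mcoln1 holds it 2 times, and Atp6v1a and Ctsf once each. A match in letters is a description and does not show binding.
Lamp1 (chr8:13159021-13159160, plus strand): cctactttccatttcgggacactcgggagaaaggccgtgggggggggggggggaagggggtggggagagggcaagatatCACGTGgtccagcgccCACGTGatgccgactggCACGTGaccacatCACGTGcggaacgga
Mcoln1 (chr8:3500379-3500518, plus strand): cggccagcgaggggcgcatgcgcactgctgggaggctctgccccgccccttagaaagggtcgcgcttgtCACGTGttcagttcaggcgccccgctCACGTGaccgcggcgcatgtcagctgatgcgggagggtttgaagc
Atp6v1a (chr16:44139260-44139399, minus strand): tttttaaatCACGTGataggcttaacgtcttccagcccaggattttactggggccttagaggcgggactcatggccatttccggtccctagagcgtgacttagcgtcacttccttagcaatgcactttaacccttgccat
Ctsf (chr19:4855025-4855164, plus strand): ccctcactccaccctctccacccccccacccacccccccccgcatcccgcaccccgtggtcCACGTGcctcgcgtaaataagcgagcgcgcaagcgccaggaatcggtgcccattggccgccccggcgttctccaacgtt

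Of the 9 genes, 7 were higher in both PTC2+ libraries than in either PTC2- library. Unc93b1 differed most, by 36.0 times in mean level, and Lamp1 and Tcirg1 by 2.29 and 2.26 times. Ctsf, Atp6v1a, Litaf and Mcoln1 differed by 1.84, 1.59, 1.57 and 1.24 times. Lamp3 was lower in both PTC2+ libraries, and the ranges of Ctsw overlapped. Over all 11807 rows tested, 49.5% did not overlap, 24.6% being higher and 24.9% lower in PTC2+ cells.

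**Figure D1:**
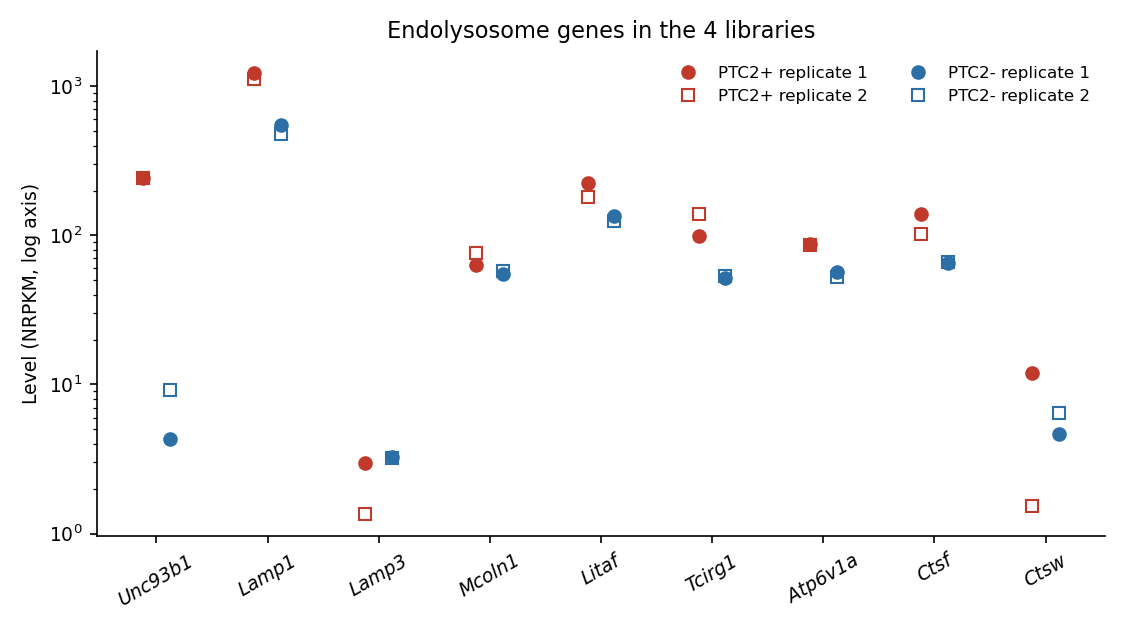
Level of each of the 9 genes (NRPKM, log axis) in the 4 libraries, red for PTC2+ and blue for PTC2-, filled circles for replicate 1 and open squares for replicate 2. Unc93b1 measured 243 and 244 NRPKM in the PTC2+ pair against 4.31 and 9.20 in the PTC2- pair, while most other genes lay within a few fold between populations.

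Unc93b1 is a membrane protein that escorts the nucleic-acid-sensing Toll-like receptors from the endoplasmic reticulum to endosomes. It measured 243 and 244 NRPKM in the PTC2+ pair against 4.31 and 9.20 in the PTC2- pair. The PTC2+ libraries were nearly equal, and both lay far above the PTC2- libraries, which differed from each other by 2.13 times. The difference was 5.05 on the log2(NRPKM + 1) scale (SE 0.33). It ranked 2 among the 711 stretch rows tested, counted from the highest. Unc93b1 was named earlier for its difference, so nothing is read from this rank. By an estimate of what a single read was worth, the PTC2- levels stood for 6.69 and 10.5 reads per kilobase of gene, against 282 and 299 in the PTC2+ libraries. In bulk libraries, a smaller share of cells that use the gene and less RNA per cell cannot be told apart.

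Among the genes of the lysosome membrane, Lamp1 stood highest. It encodes a heavily glycosylated protein that coats the inner face of the lysosome membrane. Lamp1 measured 1231 and 1119 NRPKM in the PTC2+ pair against 546 and 478 in the PTC2- pair. The populations did not overlap, and replicates differed by at most 1.14 times. By its mean over all libraries Lamp1 ranked 5 among the 829 protein-coding rows of the stretches. Its log2 difference was 1.20 (SE 0.14, limma adjusted p = 0.0239 over all rows). That call was lost whenever any 1 library was left out (limma adjusted p 0.143 to 0.242), without the mean-variance trend (adjusted p = 0.119) and with no filter (adjusted p = 0.530), while the difference stayed between 1.10 and 1.29.

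Mcoln1 encodes a cation channel that releases calcium from lysosomes. It measured 63.2 and 76.5 NRPKM in the PTC2+ pair against 54.7 and 58.0 in the PTC2- pair. The ranges did not overlap, but the gap between the nearest libraries was smaller than the gap between the PTC2+ replicates. The log2 difference of 0.30 had a 95% interval from -0.14 to 0.74 and did not pass (limma adjusted p = 0.422).

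Litaf encodes a small zinc-binding protein on the outer face of endosomes that acts in sorting cargo toward lysosomes. It measured 226 and 181 NRPKM in the PTC2+ pair against 135 and 125 in the PTC2- pair. Both PTC2+ libraries were the higher ones, and the log2 difference of 0.64 (SE 0.16) did not pass over all rows (limma adjusted p = 0.118).

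Lamp3, a relative of Lamp1 known from mature dendritic cells and lung epithelium, was barely detected. It measured 2.96 and 1.35 NRPKM in the PTC2+ pair against 3.28 and 3.21 in the PTC2- pair. These levels stood for an estimated 1.65 to 5.09 reads per kilobase. The PTC2+ libraries were the lower ones, but the log2 difference of -0.48 had a 95% interval from -1.64 to 0.68 (limma adjusted p = 0.641). Lamp1 exceeded Lamp3 in every library, by 149 to 832 times.

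The proton pump was represented by a subunit of each of its sectors. Tcirg1, of the membrane sector and best known from bone-resorbing osteoclasts, measured 99.7 and 139 NRPKM in the PTC2+ pair against 52.2 and 53.6 in the PTC2- pair. The PTC2- libraries were nearly equal, the PTC2+ libraries differed by 1.39 times, and the populations did not overlap. Its log2 difference of 1.14 (SE 0.20) lay just outside the threshold over all rows (limma adjusted p = 0.0543). It passed with the adjustment within the stretches (adjusted p = 0.0249), with a filter at 5 NRPKM (adjusted p = 0.0411) and with median-ratio scaling (adjusted p = 0.0433). It lay farther from the threshold with no trend (adjusted p = 0.155), with no filter (adjusted p = 0.495) and with any 1 library left out (adjusted p 0.203 to 0.250).

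Atp6v1a encodes the catalytic subunit of the soluble sector, which splits ATP. It measured 87.8 and 86.1 NRPKM in the PTC2+ pair against 57.2 and 52.4 in the PTC2- pair. The replicates lay close together and the populations did not overlap, but the log2 difference of 0.66 (SE 0.15) did not pass (limma adjusted p = 0.0974). The ratio of Tcirg1 to Atp6v1a was 1.13 and 1.61 in the PTC2+ pair against 0.912 and 1.02 in the PTC2- pair. The ratio was thus higher in both PTC2+ libraries, with the larger spread there coming from Tcirg1.

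Ctsf and Ctsw are cysteine cathepsins of the papain family. Ctsf, which is made in many tissues, measured 138 and 103 NRPKM in the PTC2+ pair against 64.8 and 66.4 in the PTC2- pair. Both PTC2+ libraries were higher, with a log2 difference of 0.85 (SE 0.19) that did not pass over all rows (limma adjusted p = 0.0882). It passed with the adjustment within the stretches (adjusted p = 0.0473) and in none of the other 12 alternatives run (adjusted p 0.0711 to 0.576).

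Ctsw, known from natural killer and cytotoxic T cells, measured 11.9 and 1.53 NRPKM in the PTC2+ pair against 4.63 and 6.45 in the PTC2- pair. The PTC2+ libraries held both the highest and the lowest value and differed by 7.81 times. They stood for an estimated 13.9 and 1.87 reads per kilobase. The log2 difference of -0.18 had a 95% interval from -2.18 to 1.82 (limma adjusted p = 0.936), and its sign turned without PTC2+ replicate 2 (1.00) and without PTC2- replicate 2 (0.02). The means had the opposite sign, 6.73 NRPKM in PTC2+ against 5.54 in PTC2- cells. The annotated span of Ctsw overlaps that of the neighbouring gene Fibp by 10 bases, and none of the other 8 genes overlaps an annotated gene.

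Of the 8 genes other than Unc93b1, 1 was called higher at a limma adjusted p under 0.05 over all rows, Lamp1, and 0 lower. Of all rows tested, limma called 2.92%, with 2.44% higher and 0.483% lower. An unadjusted limma p under 0.05 was found for 5 of these 8 genes, beside 19.8% of all rows. Nothing is read from either count, since the genes were proposed with this contrast known. The median log2 difference of the 9 genes was 0.66, and 0.65 without Unc93b1, beside -0.03 over all 11807 rows tested.

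The order of the 9 levels differed most between populations at Unc93b1. In PTC2+ cells the order was Lamp1, Unc93b1, Litaf, Ctsf, Tcirg1, Atp6v1a, Mcoln1, Ctsw and Lamp3, and the ranges of Ctsf and Tcirg1 and those of Ctsw and Lamp3 overlapped. In PTC2- cells it was Lamp1, Litaf, Ctsf, Mcoln1, Atp6v1a, Tcirg1, Unc93b1, Ctsw and Lamp3. There Mcoln1, Atp6v1a and Tcirg1 lay together between 52.2 and 58.0 NRPKM, Unc93b1 overlapped Ctsw, and the other neighbours did not overlap. Unc93b1 was thus at rank 2 of 9 in PTC2+ cells and at rank 7 in PTC2- cells. Relative to Lamp1, its level was 0.197 and 0.218 in the PTC2+ pair against 0.00789 and 0.0192 in the PTC2- pair.

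**Figure D2:**
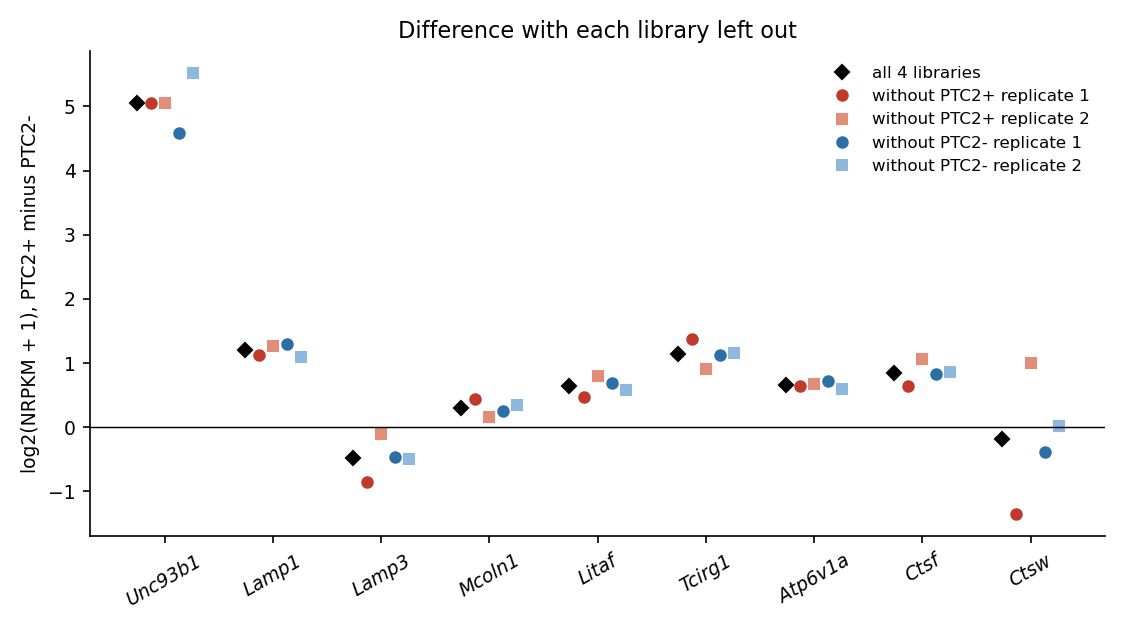
Difference between populations on the log2(NRPKM + 1) scale (PTC2+ minus PTC2-) for each of the 9 genes, with all 4 libraries (black diamonds) and with each library left out. Unc93b1 stayed between 4.58 and 5.52, Lamp1 between 1.10 and 1.29, and Ctsw ranged from -1.36 to 1.00.

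Unc93b1 and Tcirg1 lie near each other on chromosome 19, with Ndufs8 and Aldh3b1 between them. Aldh3b1, an aldehyde dehydrogenase next to Unc93b1, measured 24.6 and 16.5 NRPKM in the PTC2+ pair against 5.32 and 7.61 in the PTC2- pair (log2 difference 1.52, SE 0.35, limma adjusted p = 0.0913). Ndufs8, a subunit of mitochondrial complex I, had a log2 difference of 0.61 (SE 0.19, limma adjusted p = 0.166). Chka, a choline kinase on the other side of Tcirg1, had one of 0.09 (SE 0.17). On the far side of Unc93b1, Aldh3b2 was lower in both PTC2+ libraries, at 4.97 and 5.19 NRPKM against 10.8 and 13.4 NRPKM (log2 difference -1.10, SE 0.33, limma adjusted p = 0.158). The size of the difference at Unc93b1 was thus not shared by the genes beside it.

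Of the genes beside the other members, Grtp1, next to Lamp1, was called higher. It measured 47.7 and 64.9 NRPKM in the PTC2+ pair against 18.7 and 20.9 in the PTC2- pair (log2 difference 1.45, SE 0.23, limma adjusted p = 0.0420). That call was lost with a pseudocount of 0.1 NRPKM (limma adjusted p = 0.0577), with no trend (adjusted p = 0.106) and with no filter (adjusted p = 0.403). It was also lost with any 1 library left out, while the log2 difference stayed between 1.23 and 1.67. Cul4a, on the other side of Lamp1 and a scaffold of ubiquitin ligases, went the other way without passing, with a log2 difference of -0.28 (SE 0.14, adjusted p = 0.333). Actn3, next to Ctsf and an actinin of fast muscle fibres, had a log2 difference of -1.56 (SE 0.27, limma adjusted p = 0.0508). Olfr171 and Ccdc87, next to Lamp3 and Ctsf, were listed at 0 in all libraries.

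**Figure D3:**
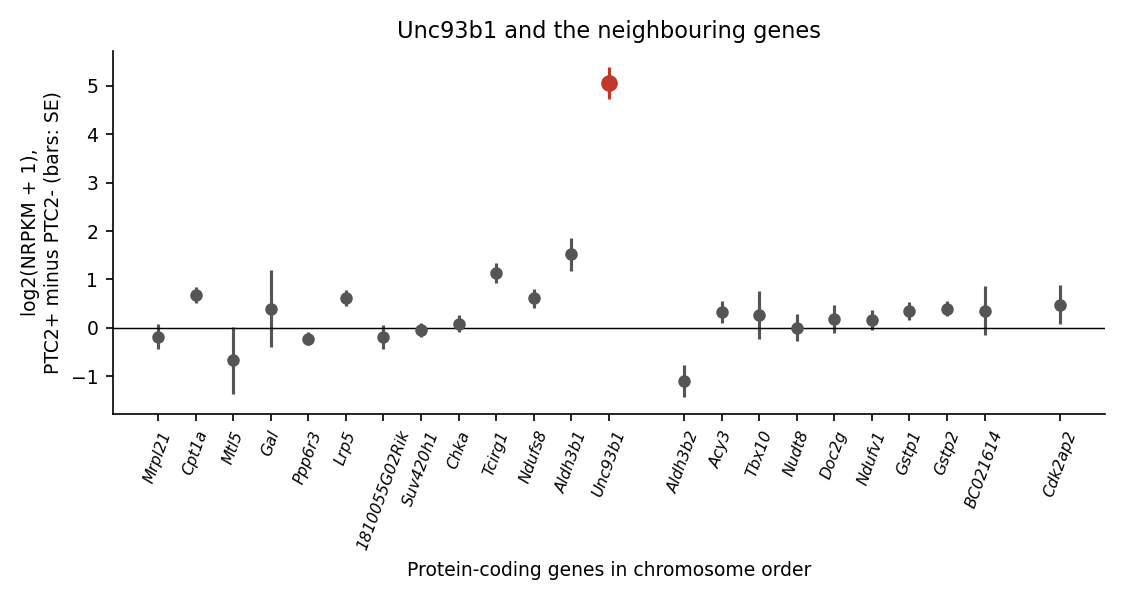
Difference between populations on the log2(NRPKM + 1) scale (PTC2+ minus PTC2-, bars are SE) for Unc93b1 in red and the tested protein-coding genes around it in chromosome order. Unc93b1 lies at 5.05, and the next highest gene shown, Aldh3b1, at 1.52.

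The genes whose centred log2 values over the 4 libraries lay nearest to those of Unc93b1 were Hcls1, Parp14, Cd86, Stfa2l1 and Gas6, at Euclidean distances of 0.115, 1.01, 1.10, 1.25 and 1.38. They were sought among the tested protein-coding rows of the stretches, so the likeness rests on 4 libraries. The distance largely follows the size of the difference between populations, for which Unc93b1 was named. The search therefore mainly finds rows with a large difference, and shared regulation was not tested. Parp14 is an interferon-induced enzyme, Stfa2l1 a cathepsin inhibitor and Gas6 a ligand of receptors that act in the uptake of dead cells. Hcls1, which regulates actin in blood cells, had a log2 difference of 4.98, close to the 5.05 of Unc93b1. The nearest of the other 8 endolysosome genes was Lamp1, at a distance of 3.94, followed by Tcirg1 at 3.98. Lamp3 was the farthest, at 5.60.

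Other genes of endosomes and lysosomes were taken from 6 lists of 256 genes, of which 37 lie in the stretches and 32 could be tested. Of these 32, 5 were called higher over all rows and 0 lower, beside 2.44% and 0.483% of all rows. Their median log2 difference was 0.60. Among the 711 stretch rows tested, which hold all list and marker genes tested, 41 were called higher and 3 lower. An unadjusted limma p under 0.05 was found for 194 of the 711. The lists were chosen with earlier results of these data known, so nothing is read from how many list genes were called. By list, the median was 2.72 for cysteine protease inhibitors, 0.34 for sorting and fusion and -0.08 for lysosome membrane and transport, and the 1 pump gene had 1.22. Stfa2l1, which is 1 of the 5 calls, Gm5483, Stfa1, BC100530 and Stfa3 were at 0 in the PTC2- pair. They passed the filter of 1 NRPKM in 2 or more libraries only through the PTC2+ pair, so they could only come out higher. The lists of lysosome enzymes and of partners of the endosomal Toll-like receptors had 0 genes in the stretches, so the receptors that Unc93b1 serves could not be read. All 5 calls were lost whenever any 1 library was left out.

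The proton pump list held 1 gene in the stretches, Rogdi, which is linked to the assembly of the pump. Rogdi measured 93.2 and 74.5 NRPKM in the PTC2+ pair against 35.1 and 35.2 in the PTC2- pair (log2 difference 1.22, SE 0.19, limma adjusted p = 0.0379). The call of Rogdi was lost with a pseudocount of 0.1 NRPKM, with no trend and with no filter. Rogdi was higher in both PTC2+ libraries, as were 24.6% of all rows tested. So were Tcirg1 and Atp6v1a, which were proposed with this contrast known, so nothing is read from the 3 together.

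Among 5 genes of lysosome membrane and transport, 4 were tested and 1 was called higher, beside 2.44% of all rows. This was Nagpa, the enzyme that uncovers the mannose phosphate tag by which hydrolases are sent to lysosomes. Nagpa measured 84.8 and 93.5 NRPKM in the PTC2+ pair against 18.2 and 15.2 in the PTC2- pair (log2 difference 2.35, SE 0.19, limma adjusted p = 0.00940). The others did not pass, and Sidt1, at 0.453 NRPKM or less, was not tested. Cdip1, a relative of Litaf, and the lysosome transporter listed as Dirc2 were lower in both PTC2+ libraries. Their log2 differences were -0.27 (SE 0.14, limma adjusted p = 0.370) and -0.36 (SE 0.24, limma adjusted p = 0.476). The ranges of the endosome pump Atp13a3 overlapped (log2 difference 0.10, SE 0.16, limma adjusted p = 0.778).

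Of 20 genes of endosome sorting and fusion, 2 were called higher and 0 lower, beside 2.44% and 0.483% of all rows. Without overlap, 13 were higher and 1 lower, beside 24.6% and 24.9% of all rows. Among the 711 stretch rows tested, 215 were higher and 209 lower without overlap. The sorting list was chosen with earlier results of these data known, so nothing is read from its counts. Ap2m1, a subunit of the clathrin adaptor at the plasma membrane, measured 442 and 372 NRPKM in the PTC2+ pair against 212 and 217 in the PTC2- pair (log2 difference 0.92, SE 0.15, limma adjusted p = 0.0421). Ehd1, which drives recycling from endosomes, stood at 134 and 147 against 68.5 and 72.4 NRPKM (log2 difference 0.98, SE 0.15, limma adjusted p = 0.0365). The log2 difference of Lamp1, 1.20, lay near both. The call of Ap2m1 was lost with a pseudocount of 0.1 NRPKM, with median-ratio scaling, with no trend and with no filter. That of Ehd1 was lost with no trend and with no filter. Snx29, of the sorting nexins, had a larger log2 difference of 1.31 that did not pass (SE 0.25, limma adjusted p = 0.0658). Rhod, a small GTPase of endosomes, went the other way, with 33.5 and 23.1 NRPKM in the PTC2+ pair against 65.8 and 57.0 in the PTC2- pair (log2 difference -1.11, SE 0.24, limma adjusted p = 0.0804).

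Cysteine protease inhibitors, which block cathepsins of the family of Ctsf and Ctsw, had 11 rows in the stretches. Apart from Cst6 these are stefin A genes and their relatives on chromosome 16, near-identical copies whose reads may be shared. Of the 7 tested, 1 was called higher, Stfa2l1 (limma adjusted p = 0.0185), beside 2.44% of all rows. Stfa2l1, Gm5483, Stfa1, BC100530 and Stfa3 passed the filter only through the PTC2+ pair. Each of them could only come out higher, so nothing is read from the direction of the call. Stfa2l1 measured 15.9 and 14.1 NRPKM in the PTC2+ pair and 0 in the PTC2- pair. Gm5483 stood at 5.35 and 20.7 NRPKM, Stfa1 at 3.88 and 7.85 NRPKM and Stfa3 at 7.30 and 2.58 NRPKM in the PTC2+ pair, and each measured 0 in the PTC2- pair. Stfa2 measured 7.64 and 19.6 against 0 and 2.07 NRPKM.

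**Figure D4:**
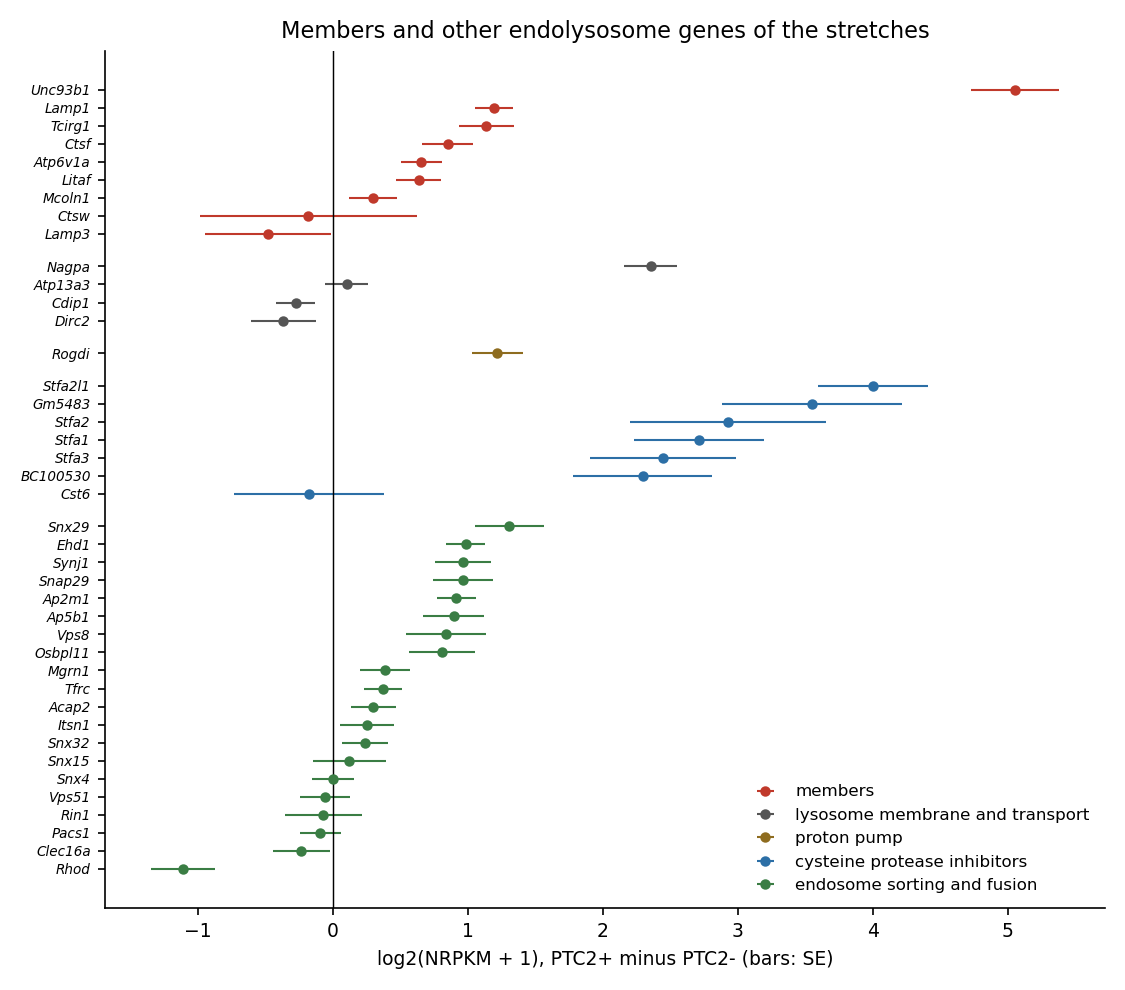
Difference between populations on the log2(NRPKM + 1) scale (PTC2+ minus PTC2-, bars are SE) for the 9 genes and for the 32 other endolysosome genes tested in the stretches, coloured by list. Unc93b1 lies highest at 5.05, the stefin row Stfa2l1 comes next, and the sorting genes lie between -1.11 and 1.31.

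Markers of 6 cell types that the sort could hold were read in the same libraries. Of the 711 stretch rows tested, 41 were called higher and 3 lower. Of 19 myeloid markers in the stretches, 17 were tested, and 8 were called higher and 0 lower, beside 2.44% and 0.483% of all rows. Of these 8 calls, 0 were left without either PTC2+ library, and 3 without either PTC2- library (Cd86, Hcls1 and Nrros). The levels of all 19 myeloid markers summed to 1128 and 1066 NRPKM in the PTC2+ pair against 298 and 304 in the PTC2- pair. Cd86, which costimulates T cells, and Cd200r1, an inhibitory receptor of myeloid cells, were both listed at 0 in the PTC2- pair, and Clec4g was listed at 0 in all 4. A row under 1 NRPKM in both PTC2- libraries could pass the filter only through the PTC2+ pair, so it could only come out higher. This holds for Cd86 and Cd200r1 among the 8 calls, and for Cd200r3, Cd200r4, Cd209a and Retnlg among the markers tested without a call. The other 6 called were Nrros, Hcls1, Il10rb, Nfkbiz, Klhl6 and Stxbp2, with log2 differences from 1.23 to 4.98. Tnfsf13b and Fcer2a, named after their values were seen, were the 2 tested markers lower in both PTC2+ libraries. Tnfsf13b, a cytokine that keeps B cells alive, measured 3.44 and 2.63 NRPKM in the PTC2+ pair against 7.87 and 7.62 in the PTC2- pair (log2 difference -1.12, limma adjusted p = 0.196), and Fcer2a had a log2 difference of -0.30 (limma adjusted p = 0.701). The marker list was written with earlier results of these genes known, and its part in the differences of the endolysosome genes was not tested.

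Of 12 mesenchyme and stroma markers, 2 were called lower and 0 higher, beside 0.483% and 2.44% of all rows, and their levels summed to 1907 and 1543 NRPKM in the PTC2+ pair against 2613 and 2297 in the PTC2- pair. Snai2 and Cd248 were those called, with log2 differences of -1.36 and -1.14 (limma adjusted p = 0.0261 and 0.0329), and both calls were lost whenever any 1 library was left out and with no trend. Without overlap, 10 of the 12 were lower and 1 higher, beside 24.9% and 24.6% of all rows. Fstl1 and Adamts1 were named after their values were seen. Fstl1, the largest part of each sum, measured 980 and 755 NRPKM in the PTC2+ pair against 1177 and 900 in the PTC2- pair, with overlap. Adamts1 was the 1 higher in both PTC2+ libraries (251 and 231 against 216 and 201 NRPKM). All 12 were detected in every library, so both populations held RNA of mesenchyme genes. Among epithelial markers, 2 of 6 were tested and 1 was called higher, Cldn8 (log2 difference 3.46, limma adjusted p = 0.00953, a call lost without either PTC2+ library), with Cldn17 listed at 0 throughout. Of 5 endothelial markers 0 were called by limma, with 3 at an unadjusted p under 0.05, beside 19.8% of all rows. The erythroid list had 0 genes in the stretches.

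Among lymphoid and natural killer markers, whose cells are known for Ctsw, 3 of 9 could be tested. Limma called 0 of these 3, beside 2.92% of all rows, and 1 had an unadjusted p under 0.05, beside 19.8% of all rows. That gene, Ptprcap, measured 23.2 and 16.8 NRPKM in the PTC2+ pair against 5.78 and 4.65 in the PTC2- pair (log2 difference 1.75, limma adjusted p = 0.0607). Tigit, an inhibitory receptor of T and natural killer cells, was the most abundant of the 9, at 77.8 and 103 NRPKM in the PTC2+ pair against 60.7 and 92.6 in the PTC2- pair, and these ranges overlapped (log2 difference 0.26, limma adjusted p = 0.662). Vpreb1, of early B cells, had a log2 difference of -0.86 (SE 0.79, limma adjusted p = 0.623), also with overlap. Cd96 and Trat1, of T and natural killer cells, were listed at 0 in all 4 libraries.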

How the data were processed

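Each library has 1 column of normalized RPKM, as deposited and per the file headers. TopHat2 2.0.5, Cufflinks 2.0.0 and the build mm9 are named in the submitters' processing notes. The counter, the gene models, strand handling and the formula of the further scaling are not given in the sources used here. RNA was amplified before library preparation, per the labels' protocols. The values are not counts, so depth was estimated from the most common low value in short pseudogenes and predicted genes. By it, 1 read in 1 kb stood for 0.859 and 0.818 NRPKM in the PTC2+ pair and 0.645 and 0.877 in the PTC2- pair. Only 34 of 77, 37 of 79, 26 of 85 and 17 of 49 low values lay there, so reads per kilobase are approximate and no count model was used.

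Values were tested as log2(NRPKM + 1), which understates the change of low genes, with limma 3.58.1 (R 4.3.3, mean-variance trend) on the 11807 rows that reached 1 NRPKM in 2 or more libraries. P-values were adjusted by Benjamini-Hochberg over all of them, threshold 0.05. No adjusted p is given for Unc93b1, named earlier for its difference. The 9 genes, the lists and the stretches were chosen with earlier results of these data known. Text names the 9 genes, up to 4 genes a list by size of difference plus those called, the 5 profiles nearest to Unc93b1 and protein-coding genes beside each of the 9. The log2 median shift of -0.03 over all rows was not subtracted. Promoter coordinates are GRCm38.p6, another build than mm9. Protein sequences were not used here.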

Additional observations from a re-analysis of the deposited data

How the results depend on the processing

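All alternatives were planned. For the 9 genes 116 alternative differences were computed. Of these, 99 kept direction and side of the threshold, 9 fell outside the threshold, 5 came inside it and 3 turned direction, all 3 for Ctsw: 0.0014 with a pseudocount of 5 NRPKM, and -1.36 to 1.00 with 1 library left out. Of the 9, 6 were for Lamp1 and 3 for Unc93b1, with no filter and without either PTC2+ library. Because Unc93b1 was named earlier for its difference, its side of the threshold is not read as a test. Lamp3 gave no value with a filter at 5 NRPKM. Rows changed over the table (345, with 288 higher and 57 lower) were 214, 181 and 33 with a pseudocount of 0.1 NRPKM, 2, 1 and 1 with no filter, and 200, 185 and 15 with no trend. Leaving out 1 library gave 0 to 42 changed, 0 to 42 higher and 0 to 0 lower (1511 to 1815 rows at an unadjusted p under 0.05 in limma). A population left with 1 library is assumed in that fit to vary like the other. The other endolysosome genes called (5) were 3 with a pseudocount of 0.1 NRPKM, 0 with no filter (19 by limma's unadjusted p under 0.05), 2 with no trend, 12 with the adjustment within the stretches, and 0 to 0 with 1 library left out. Marker genes called (11) were 0 with no filter (27 by limma's unadjusted p under 0.05), 6 with no trend, 17 with the adjustment within the stretches, and 0 to 4 with 1 library left out. The cause of these shifts was not tested. The adjustment within the stretches covers the 711 stretch rows, of which 194 had an unadjusted limma p under 0.05, against 2335 of all 11807. Fewer libraries enter when 1 is left out.

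The labels tie libraries by a replicate number, and by 918 and 925, without saying what these mark. Over all rows tested, the deviations of libraries with the same number had a correlation of 0.0229, and over the 711 stretch rows tested one of 0.0917. With the replicate block 332 rows changed over the table (270 higher, 62 lower), 6 other endolysosome genes and 13 marker genes were called, and Tcirg1 passed (limma adjusted p = 0.0437). Amplified RNA and low read numbers limit Lamp3, Ctsw and the PTC2- level of Unc93b1 most.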
